A study of Mus musculus with 8 samples.

Results

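The genes described here are 6 small surface or secreted proteins of the Ly6 family, Ly6a, Ly6c1, Ly6d, Ly6e, Slurp1 and Lypd3, out of 31688 gene names on the array. They were chosen by their measured levels in control, IFN-λ2 and IFN-β arrays of this series, so that their differences between these groups are given as a description. The number of their probes past the test's thresholds is printed once, as a count beside the share of all probes, and supports nothing. All probes carrying these names in the array design were taken, 7 in number, with 2 for Ly6c1. All 7 were well above background on all 8 arrays, and all 7 passed the filter on dim probes.

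The cells were IEC10, an immortalized line of murine intestinal epithelial cells that carries a luciferase transgene under the Mx2 promoter, and all arrays came from this line. They were grown for 21 days on transwell inserts, where they polarize, and were then left in medium (control, 2 arrays, replicates 2 and 3) or exposed to 20 ng/mL IFN-λ2 (3 arrays) or 500 U/mL IFN-β (3 arrays) for 9 h. Cy3-labelled cRNA was read on 1-color Agilent arrays, and levels are given as normalized processed signal (gPS) units, a linear fluorescence intensity scaled alike on each array. The labels do not say whether replicates came from separate cultures, so p-values cover only the spread between these arrays.

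Proteins of the Ly6 family share a compact domain held together by disulfide bonds. Most are fixed to the outer membrane leaflet by a glycosylphosphatidylinositol (GPI) anchor, whereas Slurp1 is secreted and is known as a modulator of nicotinic acetylcholine receptors. Many of their genes lie side by side on mouse chromosome 15, and Ly6a, which encodes the stem cell antigen Sca-1, has long been known to respond to interferons.

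Between 20992 and 24252 probes per array were well above background, with the fewest on the array of IFN-λ2 replicate 2. The median of the negative control spots lay between 3.31 and 8.07 units. No probe was saturated. All 13 listed interferon response genes were higher with either cytokine by limma (adjusted p under 0.05 and at least 2-fold), with a median log2 difference from control of 3.77 for IFN-λ2 and 3.57 for IFN-β. Between the cytokines 1 of the 13 was called, Oas2, higher with IFN-λ2 by 1.38 ± 0.13 on the log2 scale (SE, adjusted p = 0.00141). Of 16 listed intestinal epithelium markers, 6 were well above background on no control array (Alpi, Cdx2, Fabp1, Lgr5, Lyz1 and Muc2).

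Sequences of the 250 bases before the transcription start were taken from RefSeq (GRCm38.p6) for the 2 of the 6 genes that had an entry, Ly6c1 and Lypd3. They are shown with those of Ly6f and Ly6c2, the close relatives of Ly6c1 in the cluster, because Ly6f was measured beside Ly6c1 and Ly6c2 shares a probe with it. The capitals mark the longest run that the Ly6c1, Ly6c2 and Ly6f sequences share, 15 bases that begin 35, 60 and 63 bases before the respective start. For Ly6c1 and Ly6c2 the first of 2 listed starts is shown.
Ly6c1 (chr15:75048838-75049087, minus strand): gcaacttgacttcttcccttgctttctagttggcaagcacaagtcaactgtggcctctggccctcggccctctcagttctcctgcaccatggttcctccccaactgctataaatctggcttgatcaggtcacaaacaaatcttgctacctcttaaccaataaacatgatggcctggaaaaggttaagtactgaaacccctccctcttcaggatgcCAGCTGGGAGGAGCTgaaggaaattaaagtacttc
Ly6c2 (chr15:75111972-75112221, minus strand): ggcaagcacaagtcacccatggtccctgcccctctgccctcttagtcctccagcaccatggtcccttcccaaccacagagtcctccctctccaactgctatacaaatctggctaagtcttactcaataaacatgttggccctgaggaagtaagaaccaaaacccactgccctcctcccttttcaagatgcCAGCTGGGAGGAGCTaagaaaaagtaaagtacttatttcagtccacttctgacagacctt
Ly6f (chr15:75268171-75268420, plus strand): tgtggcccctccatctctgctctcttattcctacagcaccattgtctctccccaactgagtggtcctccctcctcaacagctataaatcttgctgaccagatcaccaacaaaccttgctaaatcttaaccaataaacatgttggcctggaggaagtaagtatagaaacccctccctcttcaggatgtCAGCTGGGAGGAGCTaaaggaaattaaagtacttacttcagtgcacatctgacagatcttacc
Lypd3 (chr7:24636320-24636569, plus strand): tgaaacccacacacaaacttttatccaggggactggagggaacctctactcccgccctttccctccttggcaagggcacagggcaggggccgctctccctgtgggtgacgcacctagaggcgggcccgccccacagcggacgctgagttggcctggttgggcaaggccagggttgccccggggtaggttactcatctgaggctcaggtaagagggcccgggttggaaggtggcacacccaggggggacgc

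The Ly6c1 and Ly6f sequences alone shared a run of 23 bases, whereas the longest run common to Ly6c1 and Lypd3 was 8 bases. A pair of interferon-related motifs was searched on both strands in these windows. The core of the interferon-stimulated response element, GAAANNGAAA, was present in 2.98% of all 32851 upstream sequences of this length and in none of the 4 shown. It was present for 6 of the 8 listed interferon response genes with an entry. The core of the gamma-activated site, TTCNNNGAA, was present in 7.02% of all sequences, in none of the 4 shown and for 1 of the 8 interferon response genes. The letters of the motifs can overlap at a GAA. At these shares a set of 4 sequences would most often lack either motif, so their absence here decides nothing. Ly6a, Ly6d, Ly6e and Slurp1 had no entry and were not searched.

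Ly6a was higher with both cytokines (probe at chr15:74825553-74825612, mm9, minus strand). Its level was 4563 and 4504 units on the control arrays, 12273, 11663 and 11766 units with IFN-λ2 and 9258, 7889 and 9118 units with IFN-β. The groups did not overlap in any comparison, with control lowest and IFN-λ2 highest. The mean was 4533 ± 41.4 units (SD, n = 2) in control, 11900.3 ± 327 units (SD, n = 3) with IFN-λ2 and 8755 ± 753 units (SD, n = 3) with IFN-β. The log2 difference from control was 1.39 ± 0.09 (SE) for IFN-λ2, 2.62-fold, and 0.95 ± 0.09 (SE) for IFN-β, 1.93-fold. In RNA of a whole culture, fewer cells of a type and less RNA per cell cannot be told apart.

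Ly6c1, a GPI-anchored antigen best known from monocytes and endothelial cells, was measured by 2 probes. The brighter probe (chr15:74875495-74875554, mm9, minus strand) read 16844 and 15586 units in control, 40755, 36445 and 39444 units with IFN-λ2 and 31619.8, 25785 and 31345 units with IFN-β. Its groups again did not overlap, in the order control, IFN-β, IFN-λ2. The log2 difference from control was 1.26 ± 0.11 (SE) for IFN-λ2 and 0.86 ± 0.11 (SE) for IFN-β.

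The dimmer probe (chr15:74877785-74877844, mm9, minus strand) lists transcripts of both Ly6c1 and Ly6c2, so that the genes cannot be told apart by it. Its sequence is shown for that reason: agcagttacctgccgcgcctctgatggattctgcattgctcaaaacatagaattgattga
It read 182 and 152 units in control, 472, 387 and 419 units with IFN-λ2 and 253, 221 and 263 units with IFN-β. No groups overlapped. The log2 difference from control was 1.35 ± 0.13 (SE) for IFN-λ2 and 0.56 ± 0.13 (SE) for IFN-β. Thus the log2 difference between the cytokines was 0.79 ± 0.12 (SE) for the shared probe and 0.40 ± 0.10 (SE) for the brighter probe, and whether these differ was not tested.

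Ly6e, a GPI-anchored protein known to affect the entry of several viruses, followed the same order (probe at chr15:74789592-74789651, mm9, plus strand). It read 29293 and 33836 units in control, 57073, 60139 and 54919 units with IFN-λ2 and 50666, 44917 and 45193 units with IFN-β. The groups did not overlap. Against control, Ly6e differed by 0.86 ± 0.10 (SE, log2) for IFN-λ2 and 0.57 ± 0.10 (SE) for IFN-β, 1.82-fold and 1.49-fold, both under the 2-fold threshold.

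Ly6d, a surface marker of squamous epithelium and of early B cells, was dim but measured on every array (probe at chr15:74592551-74592610, mm9, minus strand). It read 91.5 and 88.3 units in control, 169, 163 and 166 units with IFN-λ2 and 167, 138 and 133 units with IFN-β. Both cytokine groups lay above control, while IFN-λ2 and IFN-β overlapped through the array of IFN-β replicate 1. Against control, the log2 difference was 0.88 ± 0.11 (SE) for IFN-λ2 and 0.69 ± 0.11 (SE) for IFN-β. With normexp background correction these values were 0.68 and 0.42.

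Slurp1 was lower after IFN-λ2, while its IFN-β level overlapped control (probe at chr15:74557085-74557144, mm9, minus strand). It read 356 and 293 units in control, 79.5, 61.3 and 80.4 units with IFN-λ2 and 337, 396 and 384 units with IFN-β. All IFN-λ2 arrays lay far below the other 5 arrays, and the IFN-β arrays overlapped control. The mean was 324 ± 44.7 units (SD, n = 2) in control, 73.7 ± 10.74 units (SD, n = 3) with IFN-λ2 and 372 ± 30.8 units (SD, n = 3) with IFN-β. The log2 difference from control was -2.14 ± 0.15 (SE) for IFN-λ2, a level 4.41-fold lower, and 0.20 ± 0.15 (SE) for IFN-β. Between the cytokines it was -2.34 ± 0.14 (SE). The size depended on the background correction, since with normexp these IFN-λ2 differences were -1.30 from control and -1.45 from IFN-β.

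Lypd3, also called C4.4A and known from the upper layers of squamous epithelium, lies outside the cluster on chromosome 7 (probe at chr7:25425989-25426048, mm9, plus strand). It read 195 and 169 units in control, 106, 106 and 111 units with IFN-λ2 and 104, 151 and 143 units with IFN-β. Control was highest and did not overlap either cytokine, whereas IFN-λ2 and IFN-β overlapped through the array of IFN-β replicate 1. The log2 difference from control was -0.76 ± 0.16 (SE) for IFN-λ2 and -0.48 ± 0.16 (SE) for IFN-β. With normexp the former was -0.41.

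**Figure D1:**
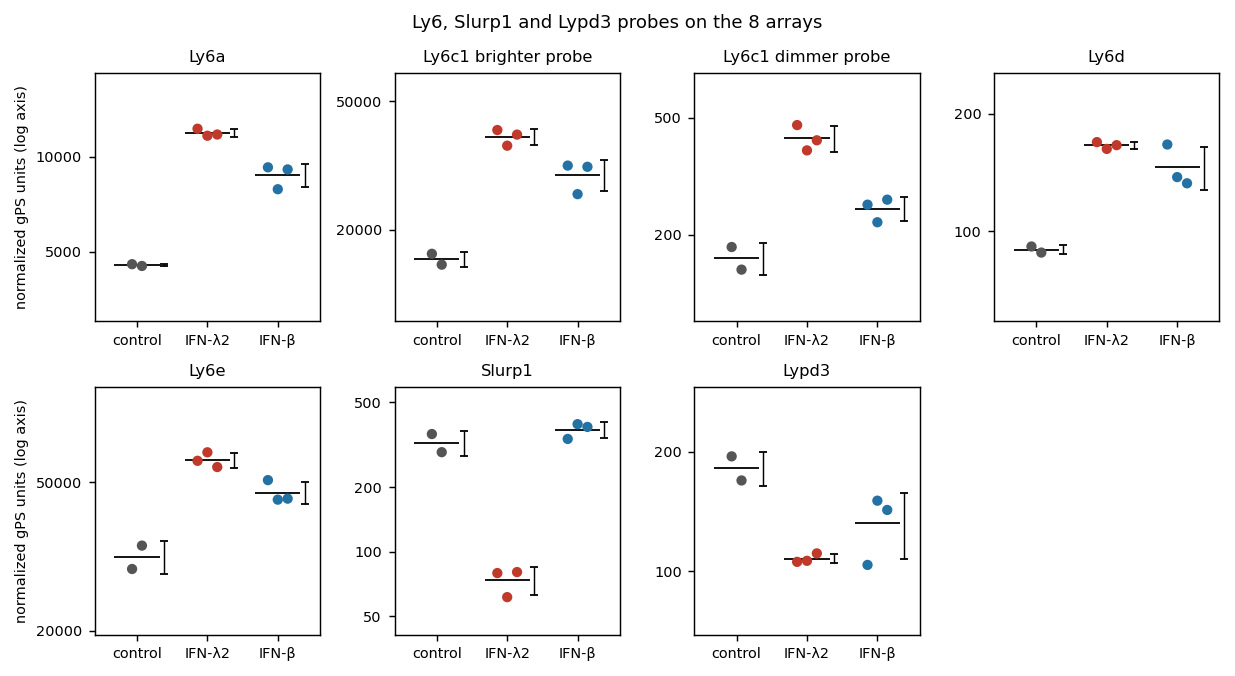
Level of each of the 7 probes in normalized gPS units (log axis, own range per panel) on the control, IFN-λ2 and IFN-β arrays. Points are arrays, all well above background, horizontal lines are group means and the bars beside them ± SD (n = 2, 3 and 3). Ly6a, both Ly6c1 probes, Ly6d and Ly6e were lowest in control, whereas Slurp1 was low on the IFN-λ2 arrays alone, with a mean of 73.7 units, and Lypd3 was highest in control.

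In the comparison of IFN-λ2 with control, 5 of the 7 probes were higher and 2 lower with no overlap of groups. Over all 25972 probes tested, 49.5% did not overlap in this comparison. For IFN-β against control, 5 probes were higher, 1 was lower and 1 overlapped, beside 26.5% of all probes without overlap. For IFN-λ2 against IFN-β, 4 were higher, 1 was lower and 2 overlapped, beside 32.4% of all probes without overlap. At an adjusted p under 0.05 and at least 2-fold (limma), 3 of the 7 probes were called higher and 1 lower for IFN-λ2 against control, where 2.67% of all probes were called higher and 1.19% lower. None of the 7 was called for IFN-β against control, where the shares were 0.882% higher and 0.0308% lower. Between the cytokines 1 probe, that of Slurp1, was past the thresholds, as lower, with shares of 1.44% higher and 0.774% lower among all probes. These shares moved with single arrays and with normexp. For IFN-β against control, 8 probes were lower, but 74 without control replicate 2, 71 without control replicate 3, 4 without IFN-λ2 replicate 1 and 2 without IFN-β replicate 2. Between the cytokines 374 were higher and 201 lower, but 359 and 448 without IFN-β replicate 2 and 243 and 36 with normexp. For IFN-λ2 against control the split was 694 higher and 308 lower, and 503 and 72 with normexp. Nothing is read from these counts, since the genes were selected on the same comparisons.

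The comparisons with control share the same 2 control arrays. Side by side, the log2 difference with IFN-β was 68.0% of that with IFN-λ2 for Ly6a, 68.4% for the brighter Ly6c1 probe, 66.3% for Ly6e, 78.0% for Ly6d and 62.9% for Lypd3. It was 41.3% for the Ly6c1 probe shared with Ly6c2. For Slurp1 the differences had opposite signs. The share of Lypd3 leaned on 1 array, since its IFN-β difference was -0.48 with all arrays and -0.31 without IFN-β replicate 1.

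The arrays of 1 replicate number lay on 1 slide, and slides 2 and 3 held all 3 groups. Within both slides, each of the 7 probes differed from control with IFN-λ2 in the direction of the pooled value. For Slurp1 the log2 difference was -2.54 within slide 2 and -1.86 within slide 3. For Ly6a it was 1.35 and 1.39, and for Lypd3 -0.88 and -0.61. Between the cytokines, Slurp1 differed by -2.09, -2.69 and -2.26 within slides 1, 2 and 3, and Lypd3 by 0.03, -0.50 and -0.36. Each group also kept 1 position on every slide, so that position and treatment cannot be told apart.

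**Figure D2:**
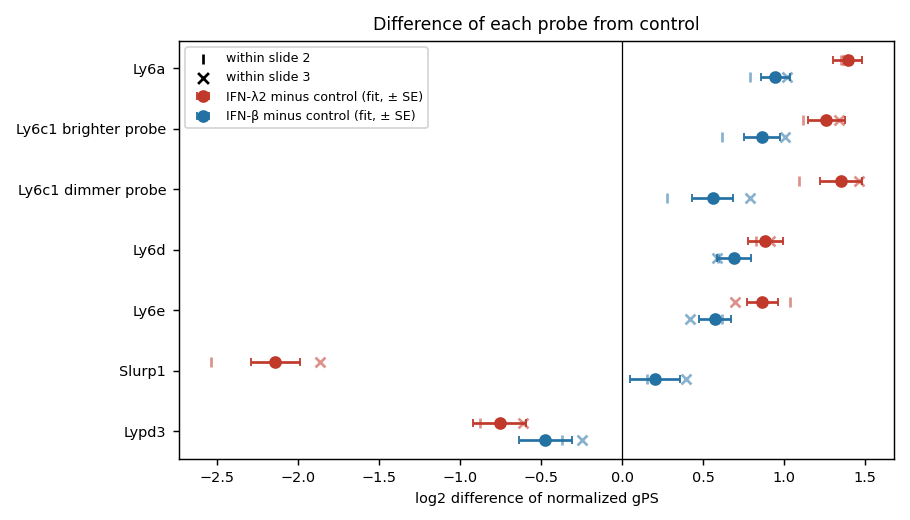
Log2 difference of each probe from control for IFN-λ2 and IFN-β, as fitted over all arrays (points, ± SE) and as measured within slide 2 (vertical ticks) and slide 3 (crosses). The IFN-λ2 value lay farther from 0 than the IFN-β value for every probe, and Slurp1 lay at -2.14 for IFN-λ2 but at 0.20 for IFN-β.

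Other genes of the family were taken from a list of 44, drawn up with earlier results of these data known. Of these, 37 were on the array by name and 23 passed the filter on dim probes, none of them through IFN-λ2 arrays alone. For IFN-λ2 against control, 6 of the 23 rose and none fell (limma, adjusted p under 0.05 and at least 2-fold). Of all probes tested, 2.67% were called higher and 1.19% lower. The median log2 difference of the 23 was 0.25, beside 0.00 over all probes tested. The genes that rose were Ly6f, Ly6m, Lypd6b, Psca, Gml and Gml2. For IFN-β against control none of the 23 passed with limma or with the methods' t-test, while 6 had an unadjusted p under 0.05, and the median was 0.18 beside 0.02. For IFN-λ2 against IFN-β, 7 were higher and none lower by the fitted values, the 6 above and Ly6g6d, beside 1.44% of all probes higher and 0.774% lower. The methods' t-test called 4 of the 23 for IFN-λ2 against control and 5 between the cytokines. Lypd2 was also called, as lower, without IFN-λ2 replicate 1, IFN-λ2 replicate 3 or IFN-β replicate 3, and Pinlyp without IFN-λ2 replicate 3. For all 23 genes this comparison had a median of -0.01 beside -0.02. With normexp 3 of these genes were called in each comparison with IFN-λ2, namely Lypd6b, Psca and Gml, and with a floor of 50 units Ly6f, Lypd6b and Psca.

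Lypd6b, a relative of the nicotinic receptor modulator Lynx1, was measured well above background on all arrays. It read 551 and 551 units in control, 1524, 1389 and 1288 units with IFN-λ2 and 664, 612 and 575 units with IFN-β. The IFN-λ2 arrays lay above all others by more than the spread within any group. The log2 difference was 1.34 ± 0.10 (SE, limma adjusted p = 0.00025) from control and 1.18 ± 0.09 (SE, adjusted p = 0.000605) from IFN-β. For IFN-β against control it was 0.16 ± 0.10 (SE, adjusted p = 0.589).

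Ly6f, whose upstream sequence is printed above beside that of Ly6c1, read 39.3 and 47.9 units in control, 113, 111 and 108 units with IFN-λ2 and 51.1, 52.2 and 61.0 units with IFN-β. It rose with IFN-λ2 by 1.35 ± 0.12 on the log2 scale (SE, limma adjusted p = 0.000496). With IFN-β it differed from control by 0.33 ± 0.12 (SE, adjusted p = 0.319), and the difference between the cytokines was 1.02 ± 0.10 (SE, adjusted p = 0.00189). That last value fell below 2-fold to 0.97 without IFN-β replicate 1 and to 0.99 without IFN-β replicate 2. With normexp the difference from control was 0.97.

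Psca, the prostate stem cell antigen, read 21.9 and 24.9 units in control, 129, 104 and 89.1 units with IFN-λ2 and 28.6, 18.0 and 25.2 units with IFN-β. Its signal cleared the background on 1 of 2 control arrays, all 3 IFN-λ2 arrays and 1 of 3 IFN-β arrays. Psca rose with IFN-λ2, by a fitted 4.54-fold over control (limma adjusted p = 0.00119), and exceeded its IFN-β level at least 3.99-fold (adjusted p = 0.00139). Values given as at least are lower bounds. In them a dim array counts with the higher of its own signal and the lowest signal well above background on that array. They allow for background and not for the spread between arrays. Against control no such bound applied to Psca, since its dim control array exceeded that lowest signal. The log2 difference from control was 2.04 to 2.31 when 1 array was left out.

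Gml read 15 and 17.1 units in control, where 15 is the floor, 97.9, 108 and 84.3 units with IFN-λ2 and 18.0, 15 and 20.9 units with IFN-β. No control array and 1 IFN-β array showed it well above background. With IFN-λ2 it was thus at least 5.21-fold higher than in control (limma adjusted p = 0.000125). A second Gml probe, at or next to the floor on all control and IFN-β arrays, read 59.9, 65.5 and 48.6 units with IFN-λ2 and is given without a test because it passed the filter through the IFN-λ2 arrays. The remaining Gml probe had a log2 difference of 0.25 ± 0.26 (SE, adjusted p = 0.535) and was near the floor on all arrays.

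Gml2, its neighbor in the cluster, read 20.5 and 19.4 units in control, 43.1, 61.7 and 44.2 units with IFN-λ2 and 17.1, 15 and 25.03 units with IFN-β. Gml2 cleared the background on 1 of 2 control and 1 of 3 IFN-β arrays. Its rise over control with IFN-λ2 was a fitted 2.45-fold (limma adjusted p = 0.0128). The log2 difference was 1.13 to 1.39 when 1 array was left out, and the call was lost without either control array. Over IFN-β its bound was 1.98-fold, under the 2-fold threshold (adjusted p = 0.00918). Ly6m read 15 and 17.6 units in control, 32.5, 91.7 and 77.3 units with IFN-λ2 and 25.4, 15 and 20.7 units with IFN-β. Neither control array showed Ly6m well above background, and against control IFN-λ2 was at least 3.27-fold higher (limma adjusted p = 0.0265). IFN-λ2 replicate 1 lay far below the other IFN-λ2 arrays. With the replicate number as a block, the adjusted p of Ly6m was 0.0644 against control and 0.0976 against IFN-β. Leaving out either control array, IFN-λ2 replicate 2 or IFN-λ2 replicate 3 also took its adjusted p against control past 0.05, up to 0.110. Against IFN-β it exceeded 0.05 when any array other than IFN-λ2 replicate 1 was left out, up to 0.129.

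Ly6g6d, which lies on chromosome 17, read 46.0 and 44.9 units in control, 76.3, 70.1 and 83.7 units with IFN-λ2 and 30.8, 40.2 and 38.6 units with IFN-β. The groups were ordered IFN-β, control, IFN-λ2 without overlap. The log2 difference between the cytokines was 1.08 ± 0.12 (SE, limma adjusted p = 0.00246), and 0.96 without IFN-β replicate 1.

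**Figure D3:**
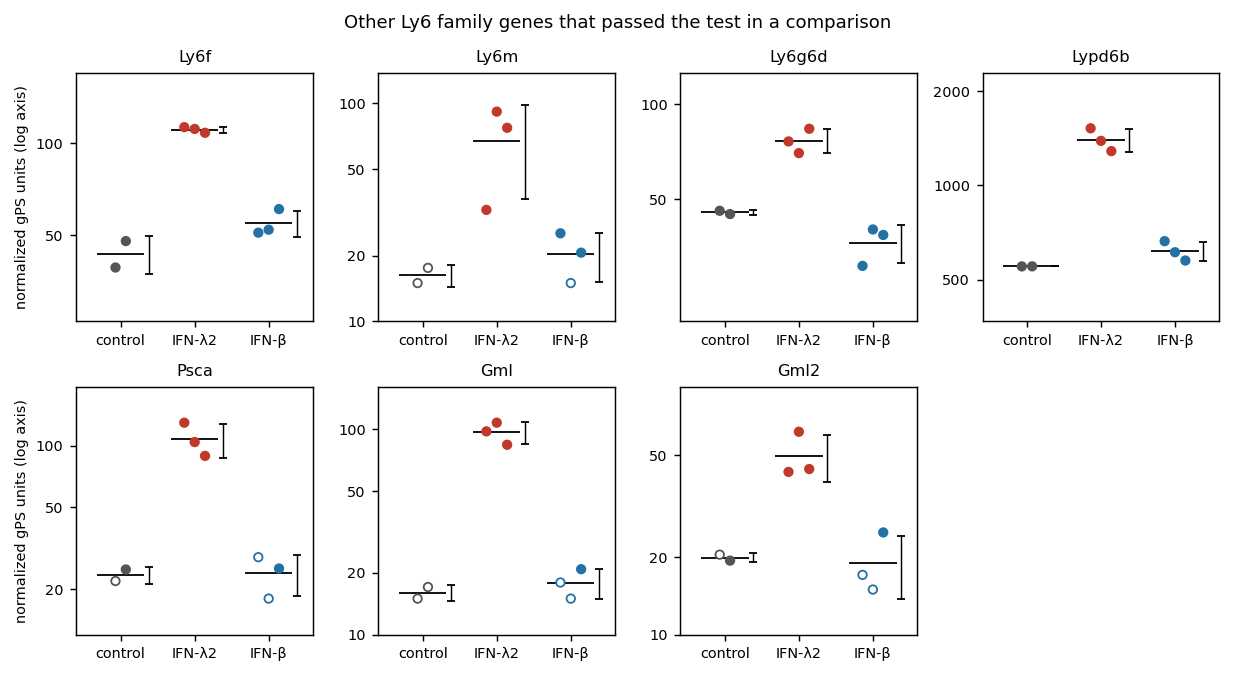
Level of the 7 other family genes that passed the test in a comparison, in normalized gPS units (log axis, own range per panel). Points are arrays, open where not well above background, lines are group means and bars ± SD (n = 2, 3 and 3). In each panel the 3 IFN-λ2 arrays lay above all control and IFN-β arrays, and Gml, Gml2, Ly6m and Psca were near background without IFN-λ2.

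Of the remaining family genes well above background on all 8 arrays, none changed by 2-fold. Plaur, the urokinase receptor, read 6816 and 6415 units in control, 10427, 10828 and 9819 units with IFN-λ2 and 7673, 8058 and 7617 units with IFN-β. Its log2 difference from control was 0.65 ± 0.07 for IFN-λ2 (SE, limma adjusted p = 0.00184) and 0.23 ± 0.07 for IFN-β (SE, adjusted p = 0.27). Pinlyp, a phospholipase A2 inhibitor of the family, read 72.7 and 75.1 units in control, 39.7, 42.5 and 60.7 units with IFN-λ2 and 100.1, 85.1 and 87.0 units with IFN-β. Pinlyp was thus lowest with IFN-λ2, with a log2 difference of -0.95 ± 0.16 from IFN-β (SE, limma adjusted p = 0.0128) that was -1.14 without IFN-λ2 replicate 3 and -0.16 with normexp. Tex101 had a log2 difference of -0.69 ± 0.13 from IFN-β (SE, adjusted p = 0.0192).

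Slurp2 and Lynx1, which lie near Slurp1 in the cluster and encode a second secreted protein and a membrane-bound nicotinic receptor modulator, did not pass the test in any comparison. The log2 difference of IFN-λ2 from control was 0.09 ± 0.09 for Slurp2 (SE, limma adjusted p = 0.524) and -0.15 ± 0.13 for Lynx1 (SE, adjusted p = 0.474). Ly6g5b, Ly6g6c, Lypd5, Gpihbp1 and Spaca4 had values between -0.33 and 0.41, each with an adjusted p above 0.05.

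Along the cluster on chromosome 15, from Psca to Gpihbp1, 23 genes were on the array and 20 were tested. The order of genes is that of GRCm38.p6. Ly6a, Ly6c1, Ly6f and 9030619P08Rik follow each other among the tested genes toward one end, and had log2 differences of IFN-λ2 from control of 1.39, 1.26, 1.35 and 1.38. With IFN-β these were 0.95, 0.86, 0.33 and 0.89. Beyond them lie Ly6h, not well above background on any array, and Gpihbp1, which had -0.33 ± 0.38 (SE) with IFN-λ2. Near the other end, Psca at a fitted 2.18, dim without IFN-λ2, and Slurp1 at -2.14 are separated only by Them6 at 0.18. Lypd2, next to Slurp1, had -0.50 with IFN-λ2 and 0.47 with IFN-β, neither called. Between the cytokines Lypd2 differed by -0.97 ± 0.17 (SE, limma adjusted p = 0.0149), under the 2-fold threshold, and by -0.23 with normexp.

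**Figure D4:**
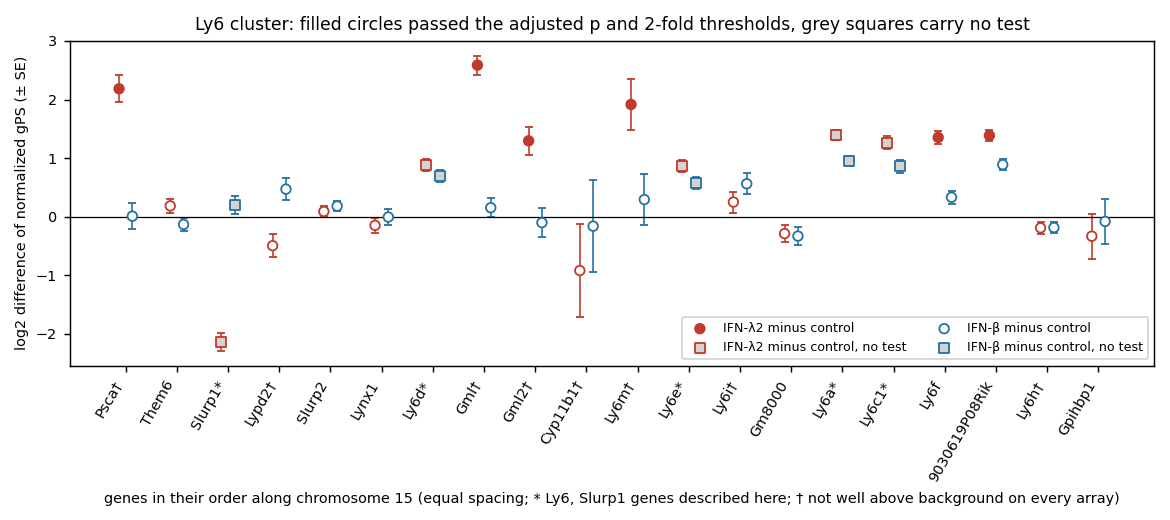
Log2 difference from control (± SE) for IFN-λ2 and IFN-β of the 20 tested genes between Psca and Gpihbp1, placed at equal distances in their order along the chromosome. Grey squares mark Slurp1, Ly6d, Ly6e, Ly6a and Ly6c1, which carry no test. Filled circles are other genes that passed an adjusted p under 0.05 and 2-fold, all of them for IFN-λ2 and above 0. Daggers mark 8 genes that were not well above background on every array, Ly6h on none and Cyp11b1 on 2, and their fitted differences rest in part on background signal.

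The genes most like the members that spanned at least 2-fold between groups were taken by the smallest root mean square (RMS) difference of log2 deviations over the 8 arrays. For Ly6a these were 9030619P08Rik (RMS 0.06), Ly6c1 (0.07) and Noxo1 (0.08). For the brighter Ly6c1 probe they were Ly6a (0.07), 9030619P08Rik (0.08) and Noxo1 (0.09). The shared Ly6c1 probe had other nearest genes, Slc7a8 (0.10), 5033406O09Rik (0.10) and Folr1 (0.12). Slurp1 was closest to Erc2, Prdm8 and Tac1, at 0.20 each.

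Genes that build the GPI anchor were examined next, since most of these proteins carry it. Of 29 listed genes, 28 were tested and none was called in any comparison by limma or by the methods' t-test. Those with an unadjusted p under 0.05 numbered 6 for IFN-λ2 against control, 3 for IFN-β against control and 4 for IFN-λ2 against IFN-β. The median log2 difference for IFN-λ2 against control was 0.06, beside 0.00 for all probes. Of 15 listed partners, the nicotinic receptor subunits and the anterior gradient proteins Agr2 and Agr3, 5 were tested and none was called by limma or the methods' t-test, with 1, 0 and 2 at an unadjusted p under 0.05 in the same order.

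Slurp1, Lypd3 and Ly6d are known from squamous epithelium, and 20 of 30 listed squamous markers were tested. For IFN-λ2 against control 2 rose, Krt4 by a fitted 2.67-fold (limma adjusted p = 0.0124) and Tgm1 by 2.17-fold (adjusted p = 0.000765), and 1 fell, Sprr1b with a log2 difference of -1.02 ± 0.22 (SE, adjusted p = 0.0227). Of all probes, 2.67% were called higher and 1.19% lower in this comparison, and 1.44% and 0.774% between the cytokines. Krt4 is a keratin of stratified epithelium, Tgm1 cross-links the cornified envelope and Sprr1b is one of its precursors. For IFN-λ2 against IFN-β, Krt4 and Tgm1 were higher, and the basal keratins Krt14 and Krt15 were lower at -1.06 ± 0.20 (SE, adjusted p = 0.0167) and -1.04 ± 0.21 (SE, adjusted p = 0.0241). None was called for IFN-β against control by limma or the methods' t-test, and 1 had an unadjusted p under 0.05. The list median for IFN-λ2 against control was 0.06. With normexp none of these squamous markers was called in either comparison. Leaving out single arrays kept Tgm1 called in both comparisons, with an adjusted p of at most 0.00743. Krt4 was lost against control without control replicate 2 (adjusted p = 0.0703) and against IFN-β without IFN-β replicate 3 (adjusted p = 0.0579). It was also lost in both with the methods' t-test (adjusted p = 0.141 and 0.0763) and with a floor of 50, where the log2 difference from control was 0.51, and against IFN-β with no filter (adjusted p = 0.0532). Sprr1b was lost without IFN-λ2 replicate 1, IFN-λ2 replicate 2 or control replicate 3, where its difference was -0.72 (adjusted p = 0.116), and also with quantile scaling, no filter or the methods' t-test. Krt14 and Krt15 were both lost without IFN-λ2 replicate 1, IFN-λ2 replicate 2 or IFN-β replicate 3, with no filter and with the methods' t-test, Krt15 also without IFN-β replicate 1 and Krt14 also with a floor of 50 (log2 difference -0.99). Their adjusted p without 1 array reached 0.0592 and 0.0904.

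Marker lists of other cell types were measured beside these genes. The summed level of 9 fibroblast markers was 12066 to 15263 units in control, 6782 to 8616 units with IFN-λ2 and 14119 to 15886 units with IFN-β, with Col3a1, Lum, Pdgfra and Pdgfrb well above background on no array. Most of that sum is Vim, an intermediate filament gene, which was lower with IFN-λ2 than with IFN-β (log2 difference -1.01 ± 0.13, SE, limma adjusted p = 0.00418) and under 2-fold in the deposited table and without IFN-λ2 replicate 1, IFN-λ2 replicate 2 or IFN-β replicate 3. The sum of 12 blood cell markers was 10915 to 14449, 8673 to 10953 and 9353 to 16454 units in the same order, with Cd3g and Itgax well above background on no array. The sum of 8 endothelial markers was 922 to 1096, 929 to 1078 and 1005 to 1093 units, with Cdh5, Emcn and Tek well above background on no array. For the 29 squamous markers on the array the sum was 42954 to 46303, 48034 to 57766 and 41967 to 44110 units in the same order. The summed level of the 16 intestinal epithelium markers was 398495 to 399618 units in control, 489233 to 515234 units with IFN-λ2 and 415226 to 450092 units with IFN-β. Bright genes weigh most in such a sum. Of the 16, 11 were tested and none was called in any comparison by limma, with a median log2 difference from control of 0.11 for either cytokine. The part of these levels in the results above was not tested.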

How the data were processed

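Gene expression was measured on 8 arrays, grouped by their labels. The authors extracted signals with Agilent Feature Extraction 10.7.3.1 and deposited the intensity of each feature per array, already background-subtracted, and a table of scaled intensity values with a floor. For single-feature probes that table equalled the values used here times 1 factor per array, between 0.909 and 0.928. The authors' methods name a 75th percentile of 1500 and a floor of 15, which were applied here to the geometric mean of features per probe after control spots and outliers were left out, and log2 was taken.

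limma 3.58.1 (R 4.3.3) was run on all 8 arrays with a mean for each of 3 groups, with Benjamini-Hochberg adjustment over the 25972 probes that exceeded the floor on 2 or more arrays. A gene on several probes was counted by the one with the highest mean. Called means adjusted p under 0.05 and at least 2-fold. Members and gene lists were chosen with earlier results of these data known. Family genes are named if called or well above background on all arrays, and genes of the GPI anchor, partner and squamous lists if called, up to 6 per list. Lypd2, Vim and Oas2 were named after their values were seen. Gene names follow GRCm38.p6, and the array files give probe coordinates on mm9.

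Replicate numbers mark slides. Deviations from group means correlated between IFN-λ2 and IFN-β arrays of the same number (0.178, 0.255 and 0.297), so numbers pair these arrays. For control arrays of the same number the values were 0.001 and -0.01 with IFN-λ2 and 0.10 and -0.06 with IFN-β. The reported fit has no block, so its p-values leave this pairing out. A control replicate 1 was not analysed here. In simulated data, 200 of 25972 probes were shifted by 2 on the log2 scale, of which 171 were recovered in the comparison of IFN-λ2 with control, 180 for IFN-β with control and 189 between the cytokines. Of the probes not shifted, 4, 7 and 3 were called in the same order. The simulated noise was independent between arrays and had no floor. Recovery of smaller differences or of probes near the floor was not simulated. Alternatives were normexp, quantile scaling, other floors and filters, the deposited table, the replicate block, leaving out each array, other variance settings and the methods' t-test. The last is an equal-variance t-test of 2 groups at the same thresholds. For its 2-group analysis the paper gives limits of p, q and fold change but names no test. Its limit on the unadjusted p was not applied. Tables were made with Python 3.11.15. The number of arrays limits the precision.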

Additional observations from a re-analysis of the deposited data

How the results depend on the processing

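None of the 315 log2 differences of the 7 probes under alternatives had another sign than the reported value, and 301 moved by less than the spread between replicates. Many of the 315 could not move. Leaving out an array of the group not compared leaves a difference as it was. The lowest reading of the 7 probes, 61.3 units, also lies above the floors of 15 and 50. These counts therefore overstate how stable the values are. The deposited table moved the differences by at most 0.02. With normexp, the count of probes called was 575 in place of 1002 for IFN-λ2 against control and 279 in place of 575 for IFN-λ2 against IFN-β. The counts of other Ly6 family genes were 3 in place of 6 and 3 in place of 7, and those of squamous markers 0 in place of 3 and 0 in place of 4. A floor of 50 also gave 3 and 3 for family genes, and 2 squamous markers between the cytokines. The methods' t-test called 597 and 79 probes for IFN-λ2 and IFN-β against control (237 with limma for the latter) and 1 squamous marker both against control and between the cytokines. Without a filter, 1 squamous marker was called between the cytokines. Fitting only the groups compared called 1 GPI anchor gene for IFN-λ2 against control.

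Leaving out 1 array gave 4 to 8 family genes between the cytokines (4 without IFN-β replicate 1, and up to 2 of them lower), 0 to 1 GPI anchor genes for IFN-λ2 against control and against IFN-β (1 without IFN-β replicate 2), 0 to 1 partner genes against control (1 without IFN-λ2 replicate 2 or 3), and 2 to 5 squamous markers between the cytokines (2 without IFN-λ2 replicate 2 or IFN-β replicate 3). The replicate block took Ly6m out of the family genes, leaving 5 against control and 6 between the cytokines, and changed no other call of a named family gene. The causes were not tested. Dim probes such as Gml, Gml2, Ly6m and Psca are limited by background, and with 2 control arrays a single array weighs heavily.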
